A study of Mus musculus with 22 samples.

Results

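The genes described here are the ligand, the receptor and the receptor-bound kinases of the interleukin-10 (IL-10) pathway in macrophages. They are Il10 (the cytokine), Il10ra and Il10rb (the receptor chains) and Jak1 and Tyk2 (the kinases). Members were taken by gene symbol and joined between the study's 2 tables by Ensembl identifier, which gave 5 genes of 38293. All 5 passed the filter on low values, 10 normalized reads in 2 libraries, in both tables.

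IL-10 is a secreted cytokine that restrains inflammatory gene expression in macrophages. It binds the ligand-specific chain Il10ra, which then pairs with Il10rb, a chain that the receptors for IL-22 and the lambda interferons also use. Jak1 is held by Il10ra and Tyk2 by Il10rb, and once brought together they phosphorylate the receptor and the transcription factor STAT3. Toll-like receptor ligands such as lipopolysaccharide (LPS, a cell wall component of Gram-negative bacteria) are known to induce Il10 in macrophages.

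The study measured by RNA sequencing how bone marrow-derived macrophages respond to IL-10 given from outside during LPS stimulation. All cells came from Il10-/- mice on the C57BL/6 background, 6 to 12 weeks old, and were grown for 7 to 8 days in medium with supernatant of L929 cells, a fibroblast line used as a source of macrophage growth factor. In the 3 h table, cells were left untreated or received LPS, IL-10, or LPS together with IL-10 for 3 h, each agent at 100 ng per ml. The other table holds its own untreated group and the same 3 treatments for 6 h and for 12 h. Every group, controls included, lacks functional Il10, and there is no wild-type group. The allele is not given in the labels, nor is when the untreated cells of the 6 h and 12 h table were harvested, so that treatment and time cannot be told apart in comparisons with it. There are 11 groups of 2 libraries, and whether the 2 of a group are separate cultures or mice is not stated. The p-values therefore measure only the spread between these libraries, which may be technical.

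The 22 libraries held between 9337222 and 31772075 reads. Values are normalized reads, that is read counts divided by a size factor per library, and changes are log2 changes of the normalized value plus 1. Every library carried the macrophage markers, whose 8 genes summed to between 330884 and 626254 normalized reads. This sum also moved with treatment. In the 6 h and 12 h table it was 370405 and 442422 untreated and 584853 and 626254 with LPS for 6 h. With both agents for 6 h it was 422232 and 389151. The markers of B cells summed to at most 102, and those of natural killer cells, neutrophils and mast cells to at most 45.5. The B cell sum was 78.7 and 58.9 untreated in the 6 h and 12 h table and 30.4 and 19.6 with LPS for 6 h. The sums of 3 other lists moved with treatment as well. The 4 dendritic cell markers went from 63.3 and 44.1 untreated to 325 and 286 with LPS at 3 h, and stood at 193 and 181 with LPS against 84.1 and 102 with both agents at 6 h. Most of this was Xcr1, which reached 310, while Flt3, Zbtb46 and Siglech stayed at or below 25.0. The 4 fibroblast markers stayed at or below 3.72 at 3 h and went from 2.81 and 3.10 untreated to 84.6 and 126 with LPS and 56.6 and 56.7 with both agents at 6 h, and to 142 and 179 with LPS at 12 h. These were Dcn, with Col1a1, Col1a2 and Pdgfra at or below 2.41 in every library. The 6 T cell markers went from 57.1 and 64.4 untreated to 282 and 228 with LPS and 184 and 135 with both agents at 6 h, of which Lck reached 226, while Cd3d, Cd3e and Cd3g stayed at or below 9.99. The macrophage, dendritic cell, fibroblast and T cell sums at 6 h moved in the direction of Il10ra and Tyk2, and their part in those results was not tested. In such bulk samples, fewer cells of a type and less RNA per cell cannot be told apart. With LPS the median gene changed by 0.03, -0.04 and -0.02 at the 3 times under the deposited scaling, but fell by 0.56 at 3 h, 1.16 at 6 h and 0.75 at 12 h when library totals were made equal. The share of called genes that were higher with LPS then went from 51.5% to 18.1% at 3 h, from 47.6% to 16.7% at 6 h and from 49.9% to 20.0% at 12 h. The 6 h change between LPS with IL-10 and LPS had a median of 0.32 under equal totals, and its share of higher calls went from 57.6% to 83.7%. Libraries of the same group differed along the GC content of transcripts, with a Spearman coefficient across genes of up to 0.80, reached in the untreated pair of the 6 h and 12 h table. The 12 h groups also held libraries that stood apart. Across genes, the log2 difference within a pair had an SD of 0.74 for LPS and 0.65 for both agents at 12 h. At 6 h these were 0.55 and 0.57, and the untreated pair of that table had 0.80. Csf1, a growth factor gene chosen after its values were seen, had 2156 and 4822 normalized reads with LPS at 12 h and 2716 and 369 with both agents. Il19, a cytokine gene that stayed at or below 1.51 normalized reads in every other library without LPS, had 104 in replicate 1 of IL-10 alone at 12 h and 0.657 in replicate 2.

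Under the deposited scaling LPS raised most of the 5 genes, of which only Il10ra and Tyk2 were called higher at every time under every scaling tried. IL-10 given with LPS raised Il10 and Jak1 at 3 h and lowered Il10ra and Tyk2 at 6 h. With LPS alone, 4 of the 5 genes were called higher at 3 h (adjusted p below 0.05, limma with Benjamini-Hochberg adjustment over all genes tested), all 5 at 6 h and 4 at 12 h, where 53.5%, 59.7% and 47.5% of all tested genes were called and 27.6%, 28.4% and 23.7% were called higher. At equal library totals, 3 members were called higher at 3 h and 2 each at 6 h and 12 h, and Il10rb was called lower at 3 h and 6 h. IL-10 alone called 1 gene, Il10, higher at 3 h, against 1.64% of all genes and 1.22% called higher. It called none of the 5 at 6 h or 12 h, where limma called 0.0624% and 1.56% of genes. At an unadjusted p below 0.05 the members counted 0 at 6 h and 1 at 12 h, and edgeR and DESeq2 also called 0 at both times. LPS with IL-10 against LPS alone called 2 genes higher at 3 h, Il10 and Jak1, against 9.6% of all genes and 4.68% called higher. At 6 h it called 2 genes lower, Il10ra and Tyk2, against 23.7% of all genes and 10% called lower. At 12 h it called 0 members, against 4.92% of all genes, with 1 at an unadjusted p below 0.05 and 0 by edgeR and by DESeq2.

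**Figure D1:**
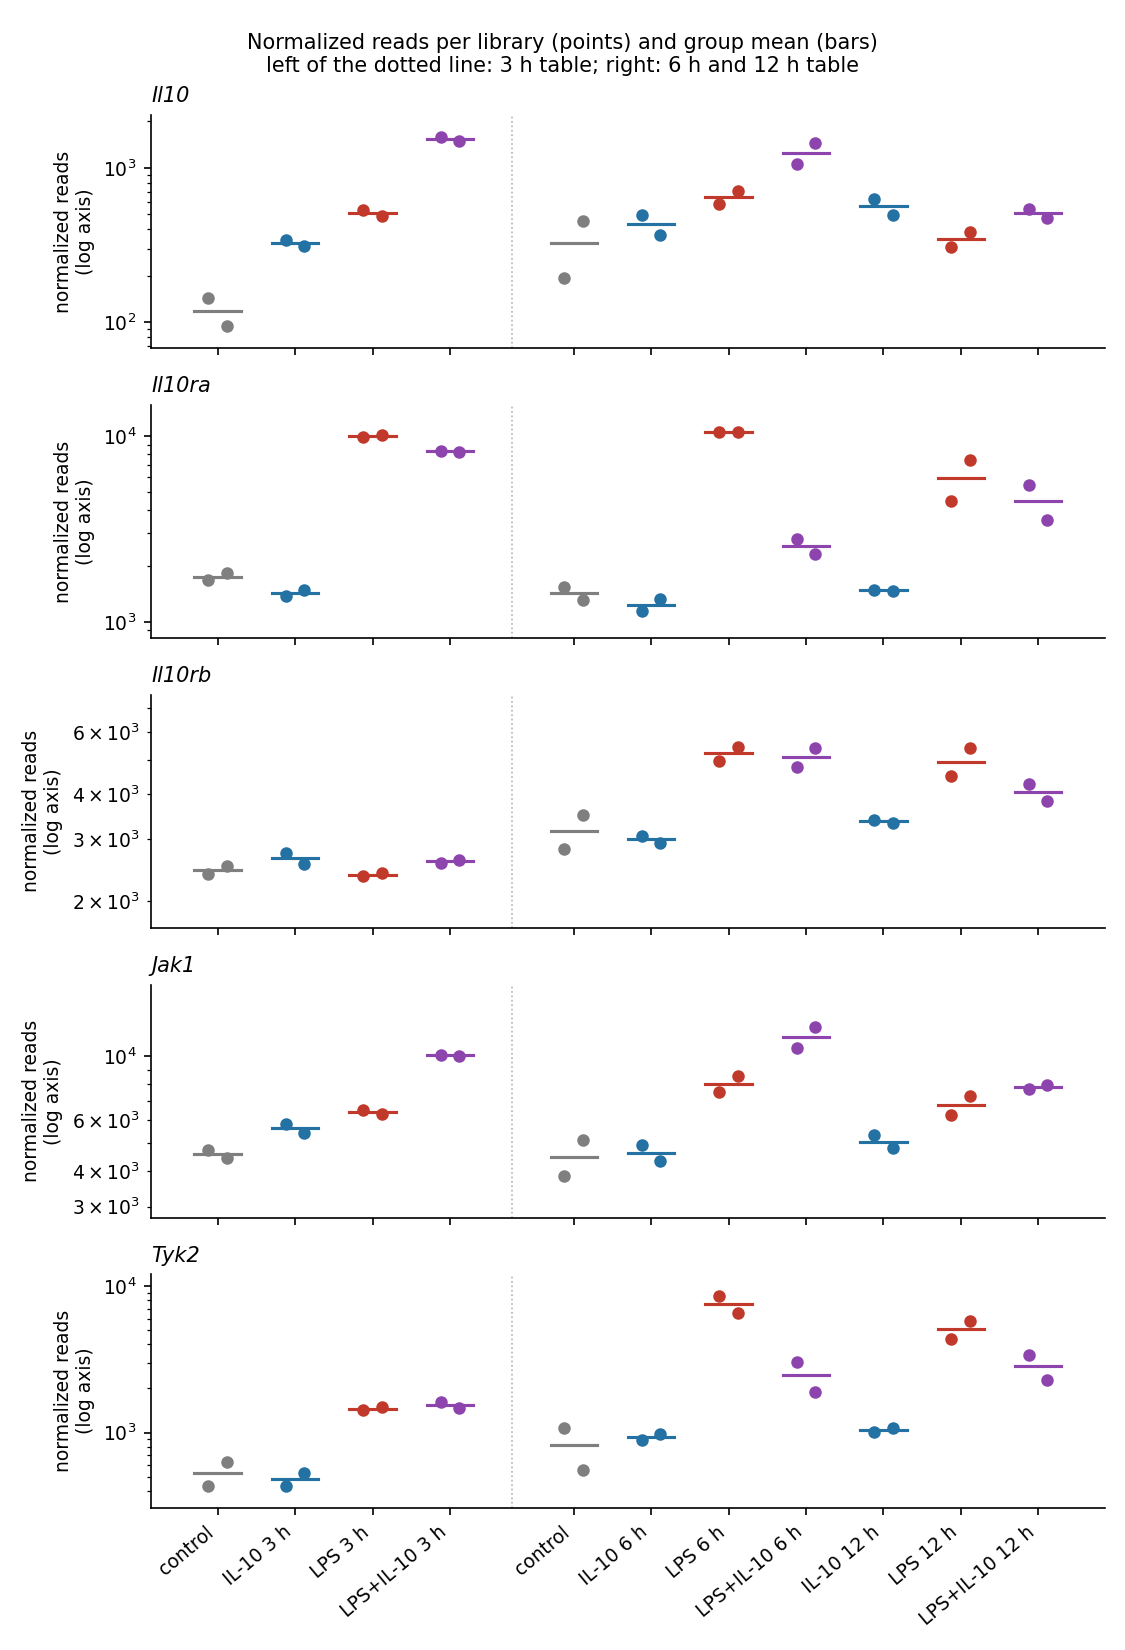
Normalized reads of the 5 genes in each library (points, log axis) with the group mean (bars). The 3 h table stands left of the dotted line and the 6 h and 12 h table, which was normalized separately, right of it. Il10ra reached 9876 to 10539 normalized reads with LPS at 3 h and 6 h, and 2327 to 2782 when IL-10 was present for 6 h.

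Il10 (ENSMUSG00000016529) lies on the plus strand of mouse chromosome 1 at chr1:131019845-131024974 (GRCm38). Reads were assigned to it in every library although the mice lack Il10, from 86 reads upward. With no wild-type group, no stated allele and values per gene only, these reads do not check the labels and do not say which part of the gene they come from. Untreated macrophages of the 3 h table had 143 and 95.3 normalized reads. IL-10 alone gave 339 and 314, LPS gave 534 and 485, and both agents gave 1576 and 1489. No 2 of the 4 groups overlapped, and the 4 groups stood in the order control, IL-10, LPS, both agents.

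The Il10 locus thus responded at 3 h to LPS by 2.11 ± 0.17 (SE, n = 2 libraries per group, adjusted p = 7e-06, limma) and to IL-10 alone by 1.47 ± 0.17 (adjusted p = 0.0033, limma). Added to LPS, IL-10 raised it by a further 1.59 ± 0.17, a 3.01-fold difference (adjusted p = 4e-04, limma). The interaction, the difference between these IL-10 effects with and without LPS, was 0.11 ± 0.25, with -0.11 under quantile normalization, and not called (adjusted p = 0.92). The response to IL-10 alone lost its call without replicate 1 of that group (1.42, adjusted p = 0.059) and when only the 2 groups compared were fitted (adjusted p = 0.24), over a range of adjusted p from 3.7e-12 to 0.24 across 21 alternatives.

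At 6 h, Il10 stood at 195 and 454 normalized reads in the untreated pair, 496 and 370 with IL-10, 581 and 706 with LPS and 1058 and 1456 with both. The untreated libraries stood on both sides of 1 library with IL-10 alone, and only the libraries with both agents stood above all others. LPS raised Il10 by 1.10 ± 0.35 (adjusted p = 0.017, limma), a call that was lost without replicate 1 of the untreated pair (0.50, adjusted p = 0.15) or replicate 2 of LPS (0.96, adjusted p = 0.098), in edgeR (0.81, adjusted p = 0.062) and in the fit to the groups compared (adjusted p = 0.10), and whose direction turned at equal library totals (-0.034). Without replicate 2 of the untreated pair the change was 1.71 (adjusted p = 0.00058). IL-10 during LPS gave 0.95 ± 0.35, which missed the threshold (adjusted p = 0.069, limma). It passed in DESeq2 (adjusted p = 0.039), at equal library totals (1.27, adjusted p = 0.012) and with the GC trend removed (0.73, adjusted p = 0.017). Library weights (adjusted p = 0.043) and the fit to the groups compared (adjusted p = 0.032) also called it. Not calling it were edgeR, TMM factors, quantile normalization, either other pseudocount, no filter and the replicate block alone.

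At 12 h, the Il10 values were 309 and 382 with LPS, 545 and 471 with both agents, and 632 and 494 with IL-10 alone. The LPS libraries lay within the range of the untreated pair, and the other 4 libraries lay above it. No comparison with the untreated group or between 12 h treatments called Il10, with LPS at 0.21 ± 0.35 (adjusted p = 0.65, and -0.53 at equal library totals) and IL-10 during LPS at 0.56 ± 0.35 (adjusted p = 0.42, limma). Without replicate 2 of the untreated pair, Il10 was called higher at 12 h with LPS (0.82, adjusted p = 0.036) and with IL-10 alone (1.52, adjusted p = 0.032). Between 6 h and 12 h with both agents, Il10 fell by 1.29 (SE 0.35, adjusted p = 0.028, limma), as 1 of 5 members called where 18.8% of all genes were called and 9.57% called lower. That call was lost without replicate 2 of both agents at 6 h (-1.06, adjusted p = 0.20), without replicate 1 (-1.40, adjusted p = 0.056) or replicate 2 (-1.19, adjusted p = 0.18) of both agents at 12 h, and under quantile normalization (-1.11, adjusted p = 0.086).

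The genes around Il10 were examined as all 11 protein-coding genes within 250 kb, 6 of which had enough reads to test. Il20, Il24, Fcmr, Pigr and Fcamr, which encode further IL-10 family cytokines and immunoglobulin receptors, did not reach the filter. Il19, whose gene ends 79.7 kb from Il10, rose with IL-10 during LPS by 3.32 ± 0.49 at 3 h, from 27.3 and 32.1 to 323 and 287 normalized reads. At 6 h it went from 147 and 153 with LPS to 3098 and 3287 with both agents, a change of 4.40 ± 1.44 that was called but lost its call in 14 of 28 alternatives. Its SE is pooled over all groups of the table, among them IL-10 alone at 12 h with the discordant pair given above. Il19 with IL-10 alone stayed at 1.51 and 0 normalized reads at 3 h, so that, unlike Il10, it was near 0 without LPS.

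The other neighbours moved less. Mapkapk2, a kinase downstream of p38 whose gene lies 28.7 kb away, rose with LPS by 2.28 ± 0.10 at 3 h, from 3478 and 4002 to 18096 and 18161 normalized reads. IL-10 during LPS changed it by 0.26 ± 0.10 at 3 h and -0.75 ± 0.35 at 6 h, neither of which was called. At 6 h, Rassf5, which encodes a Ras-binding protein, rose by 1.05 ± 0.25 when IL-10 joined LPS, and Ikbke, which encodes an I-kappa-B kinase family member, fell by 0.79 (SE 0.22). Both calls were lost without either LPS library or without replicate 2 of both agents, and that of Ikbke also at equal library totals. Dyrk3 and Eif2d, a protein kinase and a translation factor, were not called in either of these comparisons.

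**Figure D2:**
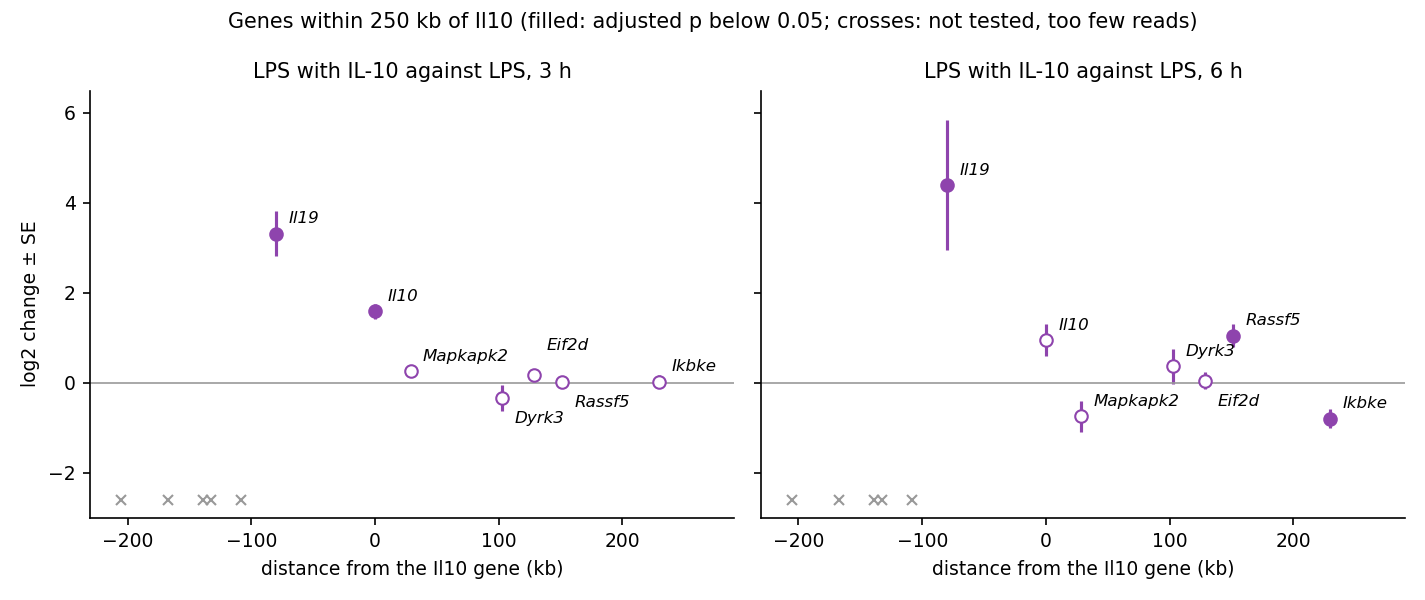
Log2 change (± SE) of Il10 and its neighbours with LPS and IL-10 against LPS alone, at 3 h and 6 h, against the distance of each gene from Il10 in kb on the genome. Filled points passed an adjusted p of 0.05 and crosses mark the 5 genes that were not tested. Il19 had a change of 3.32 at 3 h and 4.40 at 6 h, and no other neighbour exceeded 1.05.

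Factors known to act on Il10 were followed as 20 transcription factors and 17 kinases. These and the later lists were chosen with earlier results of these data known, so their counts are descriptive. Counts of this and the later lists stand beside the shares of all genes called, which were 27.6% higher and 25.9% lower for LPS at 3 h, 4.68% and 4.92% for IL-10 during LPS at 3 h, and 13.7% and 10% for it at 6 h. After 3 h of LPS, 8 of the transcription factors rose and 7 fell, turning to 6 and 9 at equal library totals, with a median change of 0.16 beside 0.03 for all genes. Among those named by the smallest p, Nfil3 (a basic leucine zipper repressor) rose by 3.16 ± 0.15, Rel and Nfkb1 (NF-kappa-B subunits) by 3.57 ± 0.13 and 2.90 ± 0.10, and Prdm1 (a zinc finger repressor) by 2.33 ± 0.10. IL-10 during LPS at 3 h called 2 of the 20 higher (10.0%) and 1 lower (5.0%), the latter near the share of all genes. Cebpb and Cebpd, basic leucine zipper factors, rose by 1.94 ± 0.29 and 1.66 ± 0.25, and Bhlhe40, a basic helix-loop-helix repressor known to restrain Il10 in T cells, fell by 1.12 (SE 0.14). At 6 h the last of these went the other way, with 2.93 ± 0.44. Of the kinases, 12 rose and 1 fell with LPS at 3 h, which became 4 and 6 at equal library totals, and Map3k8, which relays the signal to the MEK kinases, rose by 3.77 ± 0.12. IL-10 during LPS at 3 h called 2 kinases higher (11.8%) and 3 lower (17.6%), among them Map3k8 at 1.07 ± 0.12, Mapk14 (p38 alpha) at -0.91 ± 0.09 and Rps6ka5 (the nuclear kinase MSK1) at -1.05 ± 0.11.

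Il10ra (ENSMUSG00000032089, minus strand, chr9:45253837-45269149, GRCm38) encodes the chain that gives the receptor its specificity. In the 3 h table, untreated macrophages had 1672 and 1840 normalized reads and those with IL-10 alone had 1383 and 1480. LPS gave 9876 and 10151, and LPS with IL-10 gave 8357 and 8207. The libraries with LPS were all far above those without it, and the groups with and without IL-10 did not overlap at either LPS state. LPS raised Il10ra by 2.51 ± 0.09, 5.7-fold (adjusted p = 1.6e-08, limma). The difference with IL-10 was -0.29 ± 0.09 without LPS (adjusted p = 0.19) and -0.27 ± 0.09 during LPS (adjusted p = 0.087), and neither was called. The former passed without replicate 1 of the untreated pair (-0.36, adjusted p = 0.016) and after the GC trend was removed (adjusted p = 0.0069). The latter passed with the replicate number as a block (adjusted p = 0.045), in the fit to the groups compared, with library weights, after the GC trend was removed and without either untreated library, with adjusted p from 5.7e-05 to 0.0078 in the last 4 settings.

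At 6 h the picture of Il10ra during LPS was different. LPS alone gave 10521 and 10539 normalized reads, and LPS with IL-10 gave 2782 and 2327. Untreated macrophages had 1538 and 1313 and those with IL-10 alone 1147 and 1324. The libraries with both agents lay between the untreated and the LPS libraries and overlapped neither. LPS raised Il10ra by 2.89 ± 0.26, 7.41-fold (adjusted p = 8.1e-06, limma), and IL-10 during LPS lowered it by 4.14-fold (log2 change -2.05 ± 0.26, adjusted p = 0.00056, limma). That call held in all 28 alternatives, with changes from -2.18 to -1.58 and adjusted p of at most 0.0092. The change with IL-10 alone was -0.21 ± 0.26 (adjusted p = 0.96), and the interaction was -1.84 ± 0.36 (adjusted p = 0.017, limma), 1 of 2 members called where 6.72% of all genes were called and 2.26% called lower. Without replicate 2 of the untreated pair, without either LPS library, without replicate 2 of both agents or without either IL-10 library at 6 h, the interaction ranged from -1.95 to -1.71 with adjusted p from 0.055 to 0.091.

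At 12 h, LPS alone gave Il10ra values of 4480 and 7464 and both agents gave 5430 and 3533, so that these groups overlapped. The libraries of each of these pairs also differed widely across all genes, as given above. LPS raised Il10ra by 2.02 ± 0.26 against the untreated group (adjusted p = 0.00014, limma). IL-10 during LPS gave -0.40 ± 0.26 (adjusted p = 0.44, limma), and -1.08 (adjusted p = 0.040) without replicate 1 of each 12 h group. Between 6 h and 12 h of LPS alone, Il10ra fell by 0.86 (SE 0.26, adjusted p = 0.044, limma), the 1 member called where 15.8% of all genes were called and 4.67% called lower. The fall was lost without replicate 1 of LPS at 12 h (-0.50, adjusted p = 0.36), without replicate 1 (adjusted p = 0.15) or replicate 2 (adjusted p = 0.17) of LPS at 6 h, without any 1 library of the other 6 h treatments or of IL-10 alone at 12 h (adjusted p of 0.055 to 0.068), and in 7 alternatives that keep all libraries, among them edgeR (-0.74, adjusted p = 0.079) and the replicate block (adjusted p = 0.061). With both agents the change from 6 h to 12 h was 0.78 ± 0.26 (adjusted p = 0.056, limma). The effect of IL-10 during LPS differed between the times by 1.65 ± 0.36 (adjusted p = 0.058, limma). In that last comparison limma called 0 members and 1.15% of all genes, with 1 member at an unadjusted p below 0.05, 0 by edgeR and 1, Il10ra, by DESeq2 (adjusted p = 0.0028).

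Il10rb (ENSMUSG00000022969, plus strand, chr16:91406164-91425834, GRCm38), the shared chain, moved little at 3 h. Its lowest and highest libraries in the 3 h table were 2356 (LPS) and 2732 (IL-10 alone), and LPS changed it by -0.04 ± 0.08 (adjusted p = 0.70, limma). In the 6 h and 12 h table it ranged from 2810 and 3491 untreated to 4974 and 5458 with LPS for 6 h, 4777 and 5415 with both for 6 h, and 4510 and 5391 with LPS for 12 h. All libraries that had received LPS stood above all that had not. The change with LPS was 0.73 ± 0.17 at 6 h (adjusted p = 0.0028) and 0.65 ± 0.17 at 12 h (adjusted p = 0.0077, limma), a direction that turned at equal library totals (-0.41 at 6 h and -0.083 at 12 h) and at 6 h under quantile normalization (-0.22). Relative to the median gene, the change was 0.75 at 6 h and 0.67 at 12 h at equal totals, and -0.11 and 0.22 under quantile normalization. Equal totals multiply each library by a constant. Relative to the median gene they therefore return nearly the deposited change by construction, which is no separate support. At 3 h, equal totals (-0.63, adjusted p = 0.00014) and quantile normalization (-0.51, adjusted p = 0.0011) called Il10rb lower. IL-10 during LPS was not called for Il10rb at any time, with 0.13 ± 0.08 at 3 h, -0.03 ± 0.17 at 6 h (0.28 at equal totals) and -0.28 ± 0.17 at 12 h (adjusted p of 0.47, 0.89 and 0.40, limma). The 12 h call with LPS was lost without replicate 2 of LPS at 12 h (0.53, adjusted p = 0.067), under quantile normalization (0.09, adjusted p = 0.57) and in the fit to the groups compared (adjusted p = 0.20). The exons of Il10rb overlap those of Gm21970 on the same strand, which has 0 reads in every library.

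The balance of the receptor chains was compared per kb of exon within each library, a ratio that does not depend on the scaling between libraries. Exon length covers all annotated exons of a gene and not the transcripts expressed. The level of this ratio, and of the kinase ratio below, therefore depends on the annotation. Il10ra stood at 0.765 and 0.797 times Il10rb in untreated macrophages of the 3 h table and at 4.56 and 4.61 times with LPS. With LPS and IL-10 the ratio was 3.54 and 3.41, and with IL-10 alone 0.551 and 0.632. At 6 h it was 2.30 and 2.10 with LPS but 0.634 and 0.468 with both agents, a range that overlapped the untreated libraries at 0.596 and 0.409. At 12 h the groups overlapped again, with 1.08 and 1.51 for LPS and 1.38 and 1.00 for both agents. Il10ra transcripts are at 53.0% GC and those of Il10rb at 49.2%, so this ratio can also move with GC differences between libraries. In the 6 h and 12 h table the untreated pair differed along GC content with a Spearman coefficient of 0.80. For the pair with both agents at 6 h it was 0.70. The part of GC content in the receptor ratio was not tested.

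**Figure D3:**
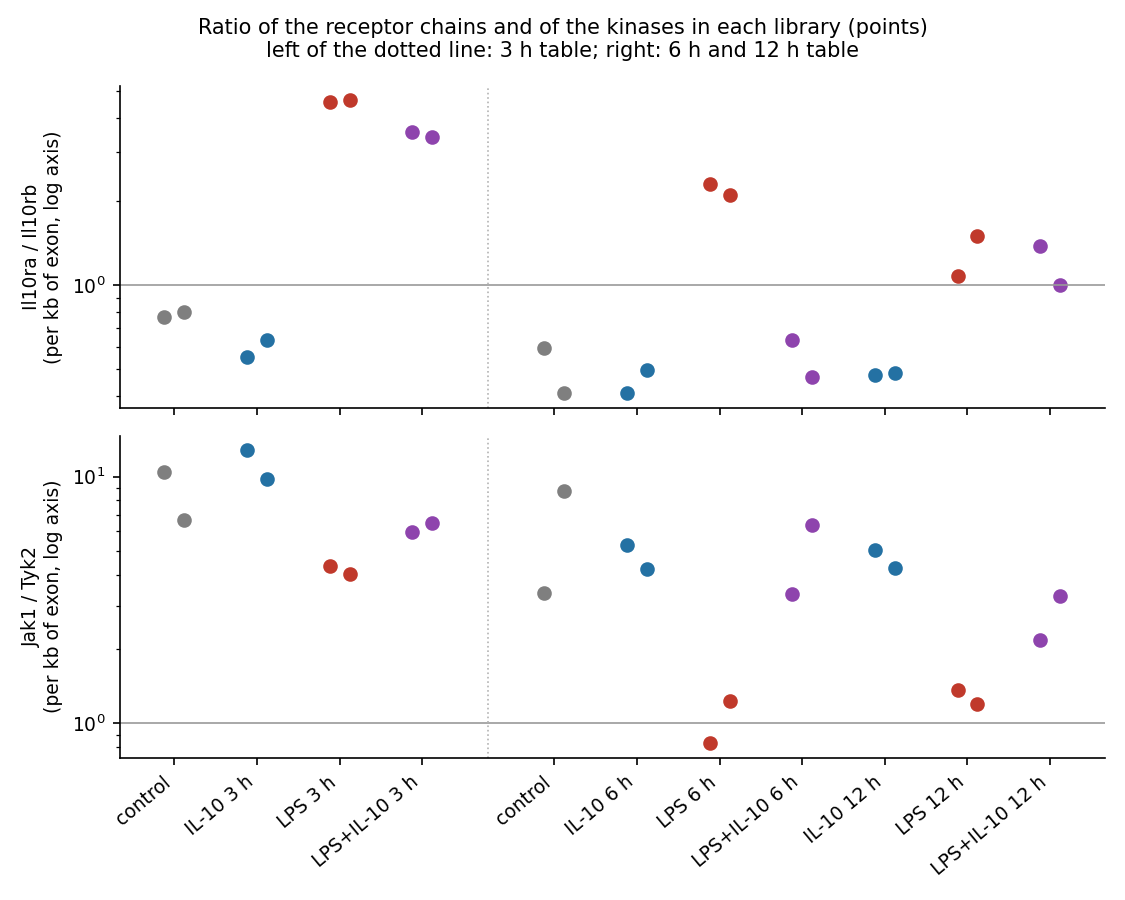
Ratio of Il10ra to Il10rb and of Jak1 to Tyk2 in each library, in normalized reads per kb of exon on a log axis, with the 3 h table left of the dotted line. The ratio of the receptor chains was 2.30 and 2.10 with LPS at 6 h against 0.634 and 0.468 with LPS and IL-10, and the ratio of the kinases was 0.830 and 1.24 against 3.33 and 6.38.

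Besides Il10ra and Il10rb, 6 class II cytokine receptor chains, their structural family, could be tested. After 3 h of LPS 6 of these 6 were called higher and 0 lower, which became 3 higher and 2 lower at equal library totals. Il20rb, a chain of the IL-19 and IL-20 receptors, rose by 2.88 ± 0.16 and Ifnar2, a chain of the type I interferon receptor, by 1.01 ± 0.08. F3, the tissue factor of coagulation, rose by 5.75 ± 0.58. IL-10 during LPS at 3 h called 3 of the 6 higher and 1 lower. The interferon receptor chains Ifngr2, Ifnar2 and Ifnar1 rose by 0.71 ± 0.09, 0.51 ± 0.08 and 0.48 ± 0.09, and Ifngr1 fell by 0.38 (SE 0.10). The calls of Ifnar1 and Ifngr1, the latter in 8 of 21 alternatives in all, were lost without any 1 of the LPS or both-agent libraries, and that of Ifnar2 without replicate 1 of LPS or replicate 2 of both agents. At 6 h, IL-10 during LPS called 2 higher, Ifnar2 (1.18 ± 0.16) and Ifngr1 (0.99 ± 0.17), and 0 lower, and 4 higher at equal library totals.

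Jak1 and Tyk2 are members of the Janus kinase family. Jak1 (ENSMUSG00000028530, chr4:101152367-101265282) and Tyk2 (ENSMUSG00000032175, chr9:21104068-21131243) both lie on minus strands (GRCm38). The 250 bases before their annotated starts (RefSeq, GRCm38.p6) are shown for the 2 members that the promoter table used here holds (the windows of Il10, Il10ra and Il10rb were not analysed here), Jak1 at chr4:101265224-101265473 and Tyk2 at chr9:21131276-21131525, minus strand, with a cyclic AMP response element in capitals.
Jak1: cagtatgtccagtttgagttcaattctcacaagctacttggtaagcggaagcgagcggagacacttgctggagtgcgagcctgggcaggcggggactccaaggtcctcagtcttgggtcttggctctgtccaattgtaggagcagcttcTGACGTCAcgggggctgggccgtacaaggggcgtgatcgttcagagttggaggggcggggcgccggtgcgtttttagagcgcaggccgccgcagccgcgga
Tyk2: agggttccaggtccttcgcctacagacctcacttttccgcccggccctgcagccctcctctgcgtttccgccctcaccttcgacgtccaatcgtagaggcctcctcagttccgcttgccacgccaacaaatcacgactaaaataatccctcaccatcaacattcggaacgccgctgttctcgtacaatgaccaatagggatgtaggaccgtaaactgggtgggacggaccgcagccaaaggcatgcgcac
Motifs were searched on both strands. The cyclic AMP response element TGACGTCA matched 1 time in the Jak1 window, starting 101 bases before the annotated start, and 0 times in the Tyk2 window. It is held by 1.55% of 32851 RefSeq promoter windows of the same length. The NF-kappa-B pattern, GGG and CC with any 5 bases between them, matched 1 time in each, 90 and 30 bases before the start, and is held by 45.8% of windows. The STAT pattern TTCNNNGAA had 0 matches in either and is held by 7.02% of windows. These matches describe letters only.

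Jak1 had 4739 and 4431 normalized reads untreated in the 3 h table, 5820 and 5418 with IL-10, 6507 and 6285 with LPS, and 10150 and 10076 with both. The 4 groups did not overlap, and the libraries with both agents stood far above the rest. LPS changed Jak1 by 0.48 ± 0.08 (adjusted p = 0.001, limma), a direction that turned at equal library totals (-0.11) and under quantile normalization (-0.15). Relative to the median gene it was 0.45 at equal totals, a value fixed near the deposited one by construction, and -0.03 under quantile normalization. IL-10 during LPS raised Jak1 by 0.66 ± 0.08, 1.58-fold (adjusted p = 9e-04, limma), and all 21 alternatives kept the call, with changes of 0.57 to 0.69. IL-10 alone gave 0.29 ± 0.08 (adjusted p = 0.17), which passed without replicate 1 of the untreated pair (0.34, adjusted p = 0.022) and after the GC trend was removed (adjusted p = 0.007). The interaction of 0.37 ± 0.12 was not called (adjusted p = 0.19), and it passed without replicate 2 of the untreated pair (0.42, adjusted p = 0.017) and after the GC trend was removed (0.39, adjusted p = 0.0055). No member passed the interaction at 3 h, where limma called 2.79% of all genes, with 1 member at an unadjusted p below 0.05 and 0 by edgeR and by DESeq2.

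At 6 h, Jak1 had 3840 and 5111 normalized reads untreated, 7492 and 8545 with LPS, and 10691 and 12714 with both agents. These 3 groups stood apart in that order, while IL-10 alone, with 4933 and 4323, lay within the untreated range. LPS changed Jak1 by 0.85 ± 0.19 (adjusted p = 0.0023, limma), with -0.29 at equal totals and -0.30 under quantile normalization. Relative to the median gene these were 0.87, again fixed near the deposited value by construction, and -0.20. IL-10 during LPS gave 0.54 ± 0.19, which missed the threshold (adjusted p = 0.056, limma). It passed in edgeR (0.61, adjusted p = 0.042) and DESeq2 (0.54, adjusted p = 0.036). It also passed at equal totals (0.86, adjusted p = 0.0037) and under quantile normalization (0.72, adjusted p = 0.0097). TMM factors, library weights and removal of the GC trend called it too (adjusted p = 0.033, 0.042 and 0.015). Either other pseudocount, no filter, only the groups compared and the replicate block alone did not. At 12 h, Jak1 had 6279 and 7307 with LPS and 7701 and 7935 with both agents. LPS changed it by 0.61 ± 0.19 (adjusted p = 0.019, limma), with -0.13 at equal totals and -0.11 under quantile normalization, and the call was lost without replicate 1 of the untreated pair (0.41, adjusted p = 0.11) or replicate 2 of LPS (0.50, adjusted p = 0.12), with library weights (adjusted p = 0.11) and in the fit to the groups compared (adjusted p = 0.24). IL-10 during LPS gave 0.21 ± 0.19 (adjusted p = 0.62). The last bases of the Jak1 exons overlap Raver2 on the opposite strand, which had 0.6 to 19.3 normalized reads.

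Tyk2 had 430 and 634 normalized reads untreated in the 3 h table and 432 and 529 with IL-10. LPS gave 1427 and 1485, and LPS with IL-10 gave 1614 and 1481. The LPS libraries stood above those without it, and those with and without IL-10 overlapped. LPS raised Tyk2 by 1.48 ± 0.17 (adjusted p = 7.7e-05, limma), and IL-10 during LPS gave 0.09 ± 0.17 (adjusted p = 0.87).

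At 6 h, Tyk2 stood at 8570 and 6572 normalized reads with LPS and at 3052 and 1894 with LPS and IL-10. Untreated macrophages had 1081 and 557, and IL-10 alone gave 889 and 974. The libraries with both agents again lay between the untreated and the LPS libraries. LPS raised Tyk2 by 3.27 ± 0.33, 9.66-fold (adjusted p = 1.7e-05, limma), and IL-10 during LPS lowered it by 3.12-fold (log2 change -1.64 ± 0.33, adjusted p = 0.0065, limma). The latter call was lost without replicate 1 of LPS (-1.45, adjusted p = 0.064) or replicate 2 of both agents (-1.30, adjusted p = 0.072). The interaction was -1.90 ± 0.47 (adjusted p = 0.039, limma). It missed the threshold in 4 alternatives with all libraries, with adjusted p from 0.058 to 0.093, without replicate 1 of each 12 h group (adjusted p = 0.070), and without any 1 of 8 libraries (-2.10 to -1.43, adjusted p from 0.061 to 0.16), which were replicate 2 of the untreated pair, either LPS library, replicate 2 of both agents and either IL-10 library at 6 h or 12 h. Tyk2 transcripts are GC-rich at 57.0%, above 88.6% of the genes tested, and the discordant untreated pair differed along GC content. With the GC trend removed, IL-10 during LPS at 6 h was -1.23 for Tyk2 and -1.90 for Il10ra, both called.

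At 12 h, Tyk2 had 4354 and 5798 normalized reads with LPS and 3360 and 2290 with both agents, without overlap. LPS raised it by 2.69 ± 0.33 (adjusted p = 0.00012, limma), and IL-10 during LPS gave -0.86 ± 0.33 (adjusted p = 0.17, limma). With the GC trend removed the latter was -0.88 and passed (adjusted p = 0.031). No member passed the interaction at 12 h or the change of IL-10 alone between 6 h and 12 h, where limma called 0.382% and 0.0078% of all genes. At an unadjusted p below 0.05 these counted 1 and 0 members, and edgeR and DESeq2 called 0 in both. Exons of Tyk2 overlap the antisense gene 1700084C06Rik, which had 1.2 to 19.9 normalized reads.

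Per kb of exon, Jak1 exceeded Tyk2 by 10.5 and 6.64 times in untreated macrophages of the 3 h table and by 4.33 and 4.02 times with LPS. With both agents the ratio was 5.97 and 6.46. At 6 h it was 0.830 and 1.24 with LPS against 3.33 and 6.38 with both agents, and at 12 h 1.37 and 1.20 against 2.18 and 3.29. The groups with and without IL-10 during LPS did not overlap at any of the 3 times. The untreated pair of the 6 h and 12 h table, at 3.37 and 8.71, was wide. Jak1 transcripts are at 47.6% GC and those of Tyk2 at 57.0%, so the ratio can also move with GC differences between libraries. The pair with both agents at 6 h differed along GC content with a Spearman coefficient of 0.70. The part of GC content in the ratio was not tested.

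**Figure D4:**
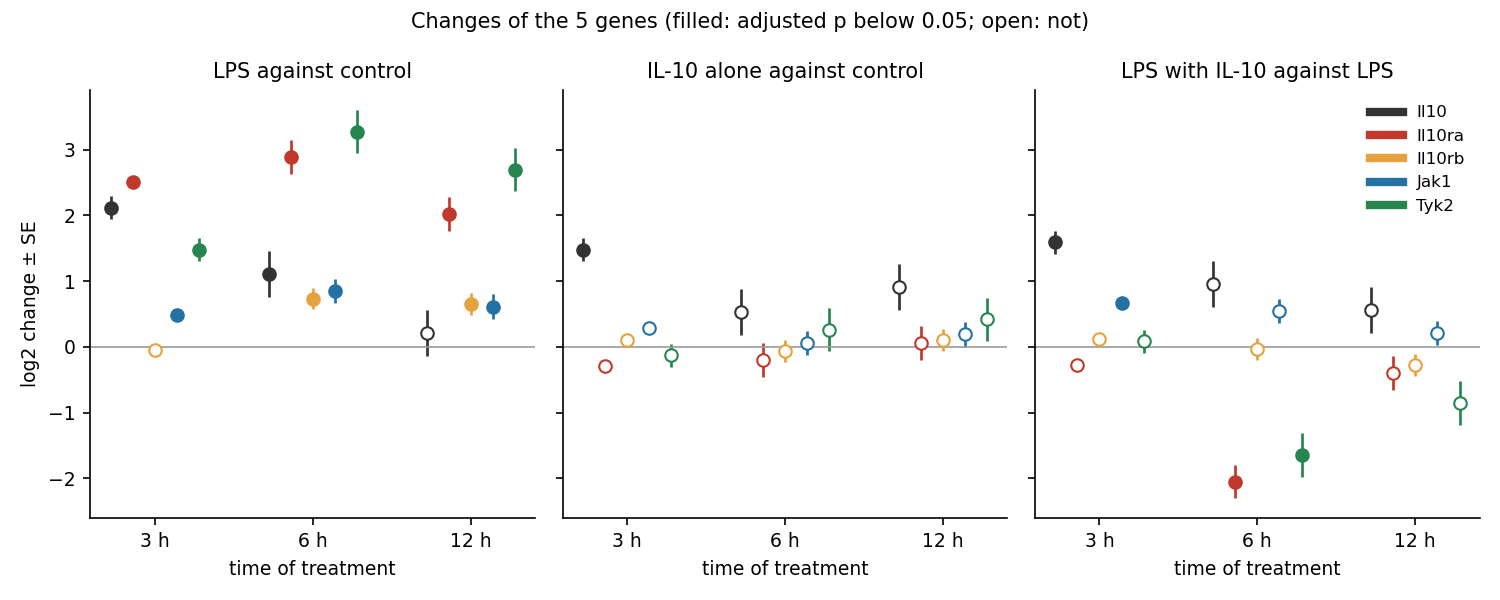
Log2 changes (± SE) of the 5 genes at each time for LPS and for IL-10 alone, both against untreated cells, and for LPS with IL-10 against LPS. Filled points passed an adjusted p of 0.05. When IL-10 was added to LPS, Il10 and Jak1 were called higher at 3 h (1.59 and 0.66), and Il10ra and Tyk2 lower at 6 h (-2.05 and -1.64). Under equal library totals the changes of Jak1 with LPS turned negative at all 3 times, as did those of Il10rb and Il10 at 6 h and 12 h, and that of Il10rb with IL-10 during LPS at 6 h turned positive.

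Of the 9 JAK kinases and STAT factors other than Jak1 and Tyk2, 7 rose and 0 fell with LPS at 3 h, 6 and 1 at equal library totals, with a median change of 1.36 beside 0.03 for all genes. Jak2 rose from 1269 and 1038 to 14037 and 13129 normalized reads, by 3.56 ± 0.12. Stat3, the main effector of the receptor, rose by 1.70 ± 0.08 with LPS, by 1.33 ± 0.08 with IL-10 alone and by a further 1.13 ± 0.08 with IL-10 during LPS. When IL-10 accompanied LPS for 3 h, 4 of the 9 rose and 0 fell, Stat3 with the value above, Stat2 by 0.58 ± 0.08, Jak2 by 0.80 ± 0.12 and Stat5a by 0.75 ± 0.13, the last losing its call without any 1 of the LPS or both-agent libraries. At 6 h, 0 rose and 2 fell, which became 0 and 1 at equal library totals and 0 and 0 under quantile normalization, and Stat3 and Jak2 were at -0.13 ± 0.22 and 0.31 ± 0.42, neither called.

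The chains of other cytokine receptors that use Jak1 or Tyk2 were counted next. When IL-10 was added to LPS for 3 h, 5 of 13 tested rose (38.5%) and 0 fell, and after 6 h 5 of 14 rose (35.7%) and 2 fell (14.3%), the latter near the share of all genes. Il4ra, the interleukin-4 receptor chain, rose from 1699 and 1915 normalized reads with LPS to 28789 and 29808 with both agents at 3 h, by 4.02 ± 0.17. Il6st and Il6ra, the chains of the interleukin-6 receptor, rose by 0.87 ± 0.09 and 1.37 ± 0.11 at 3 h and by 2.53 ± 0.23 and 3.17 ± 0.32 at 6 h. Both of these had fallen with LPS at 3 h, by 0.90 (SE 0.09) and 1.52 (SE 0.11). Il2rg, the common gamma chain, fell by 1.24 (SE 0.19) with IL-10 during LPS at 6 h.

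Among 19 inhibitors of JAK signalling, 9 rose and 6 fell with LPS at 3 h, 8 and 11 at equal totals. Socs3, which blocks signalling through gp130-type receptors, had 103 and 122 normalized reads untreated, 758 and 805 with IL-10, 12012 and 13078 with LPS, and 21705 and 21709 with both agents. Socs1, which inhibits Janus kinases directly, rose by 6.74 ± 0.28 with LPS at 3 h and was at 0.25 ± 0.28 with IL-10 during LPS. Ptpn1, a tyrosine phosphatase, fell with LPS by 0.55 (SE 0.10) and rose with IL-10 during LPS by 2.19 ± 0.10. With IL-10 during LPS 3 rose (15.8%) and 2 fell (10.5%) at 3 h. At 6 h 2 rose (10.5%) and 3 fell (15.8%), near the shares of all genes, and at equal library totals 5 rose and 3 fell.

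A list of 15 genes known to respond to IL-10 was also counted. It too was chosen with earlier results of these data known, so its excess over all genes is no independent support. With IL-10 alone at 3 h 8 rose and 0 fell, where 1.22% of all genes were called higher and 0.42% lower. The median change was 0.67 beside -0.01 for all genes. With IL-10 during LPS at 3 h 11 rose and 1 fell. Il1rn, the interleukin-1 receptor antagonist, rose with IL-10 during LPS at 3 h by 1.97 ± 0.10, and Tnip3, an inhibitor of NF-kappa-B signalling, by 2.41 ± 0.14. Under LPS, IL-10 raised 6 of the 15 and lowered 1 at 6 h. At 12 h 2 rose and 0 fell, where 2.68% of all genes were called higher and 2.23% lower.

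The genes whose 9 treatment changes were most like those of each member were taken by Pearson's r among 8676 genes. These points share 2 untreated groups and the libraries, so the values are descriptive. Pearson's r follows the shape over the changes and not their size or their distance from 0. Those of Il10 were Atp11a, which encodes a phospholipid flippase, Sf3b2, Tal1, Ripk1 and Gja1, with r from 0.919 to 0.961. From untreated to LPS at 6 h the mean of Il10 went from 324 to 644 normalized reads and that of Tal1 from 605 to 512. The means of Atp11a, Sf3b2, Ripk1 and Gja1 were higher with LPS there. Those of Il10ra were Zfp319 (a symbol that more than 1 identifier carries, so its values are not given), Crlf3, Csf1, which encodes a macrophage growth factor, Urgcp and Adamts4, with r from 0.986 to 0.992. For Il10rb they were Dnajc7, Rbm5, Cd200r4, Mettl6 and 4930402H24Rik (0.969 to 0.975), and for Jak1 Tnip3, Tmem170b, Stard7, Mcoln2 and Sh3kbp1 (0.966 to 0.985). For Tyk2 they were Alg9, Psmb10, which encodes an immunoproteasome subunit, Tmco3, Tnfrsf14 and Tap2, which encodes a subunit of a peptide transporter (0.989 to 0.993). Csf1 fell by 1.33 at 3 h and by 4.38 at 6 h with IL-10 during LPS, and Psmb10 was at 0.25 and -1.98. Within the 5 genes, Il10ra and Tyk2 were the most alike (r = 0.87), Il10rb and Tyk2 had 0.77, Il10 and Jak1 0.55, and Il10 and Tyk2 -0.05.

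**Figure D5:**
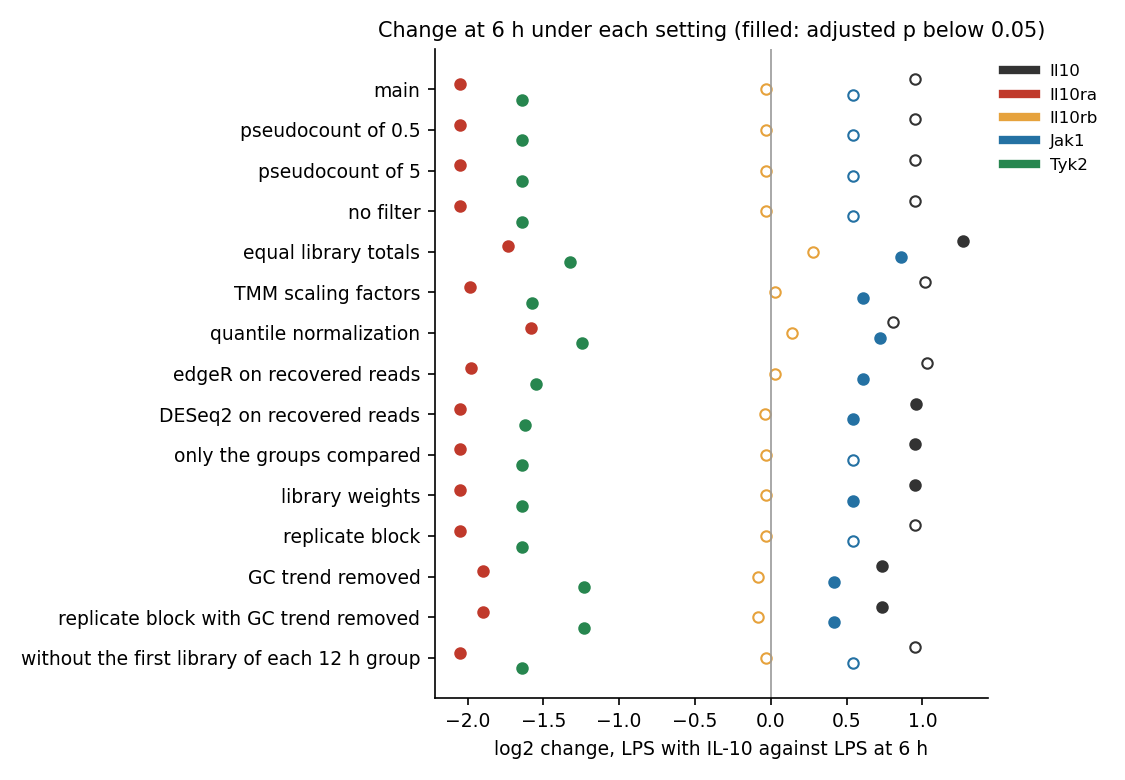
Log2 change of the 5 genes for LPS with IL-10 against LPS at 6 h (horizontal axis) under the setting reported and 14 alternatives with no single library left out (vertical axis). Filled points passed an adjusted p of 0.05. Il10ra and Tyk2 were called lower in each of these settings, while Il10 and Jak1 crossed the threshold in some.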

How the data were processed

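Per the labels' protocols, RNA of bone marrow-derived macrophages was sequenced. The authors deposited 2 tables of gene-level signal, read counts divided by a size factor per library. TopHat2, DESeq2 and GRCm38 appear in the submitters' processing notes. No source used here names the counting tool, the annotation or the strand setting. Dividing by the value of 1 read gave whole reads for 100% of values (tolerance 0.01 reads), and 1 read was worth 0.588 to 2.17 normalized reads. Each table was fitted separately with limma 3.58.1 (R 4.3.3) on log2(normalized value + 1), all groups of a table in 1 model with a trended variance. Genes needed 10 normalized reads in 2 libraries, which left 12338 genes in the 3 h table and 12817 in the other. Tests were two-sided, p-values were adjusted by Benjamini-Hochberg over all tested genes, and calls used an adjusted p of 0.05. SEs are pooled over the groups of a table, and log2 changes understate those of low genes. The fits were tested on simulated counts with a common dispersion and no GC trend. That test does not cover the differences along GC content within pairs of libraries.

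Alternatives were edgeR 4.0.16 and DESeq2 1.42.0 on the recovered reads, pseudocounts of 0.5 and 5, no filter, equal library totals, TMM factors, quantile normalization, only the groups compared, library weights, the replicate number as a block, removal of a GC trend per library, both together, each library left out, and the first library of each 12 h group left out. For LPS at 3 h limma called 6601 genes, edgeR 6526 and DESeq2 5852, and for IL-10 during LPS at 6 h they called 3037, 2777 and 3227. Coordinates, exon lengths and GC content came from GENCODE M21 (GRCm38). The 5 members were named throughout, with up to 4 genes per list by the smallest p of IL-10 during LPS and of LPS at 3 h, all tested neighbours of Il10, and the 5 genes most like each member. Members and lists were chosen with earlier results of these data known. Summaries and figures used Python 3.11.15, pandas 2.3.3 and matplotlib 3.10.9.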

Additional observations from a re-analysis of the deposited data

Results flagged for a closer look

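The interaction of LPS and IL-10 at 6 h was called for 2 of the 5 genes in the limma fit, with n = 2 libraries per group. Both were called lower, where 6.72% of all genes were called and 2.26% called lower. For Il10ra the interaction was -1.84 ± 0.36 (SE, adjusted p = 0.017): IL-10 changed it by -2.05 during LPS and by -0.21 without LPS. For Tyk2 it was -1.90 ± 0.47 (adjusted p = 0.039), with -1.64 during LPS and 0.26 without. Both interactions lost their call without single libraries, and that of Tyk2 also in some alternatives with all libraries, as given with each gene. Groups of 2 libraries were not tested for outlying samples.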

How the results depend on the processing

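Of the called changes, those of Il10ra and Tyk2 with LPS at all 3 times, of Il10 with LPS at 3 h, of Il10 and Jak1 under LPS with IL-10 against LPS (3 h) and of Il10ra in that comparison (6 h) kept direction and call in every alternative run. Equal library totals turned the LPS change of Jak1 at 3 h (-0.11), 6 h (-0.29) and 12 h (-0.13), of Il10rb at 6 h (-0.41) and 12 h (-0.083) and of Il10 at 6 h (-0.034). Quantile normalization turned that of Jak1 at 3 h (-0.15), 6 h (-0.30) and 12 h (-0.11) and of Il10rb at 6 h (-0.22). Equal totals rescale each library, while quantile normalization reshapes its values. Pairs of libraries limit every SE, and the cause of other changes was not tested.

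Counts of the 5 members called that moved by more than 1.5 times, or from or to 0, were as follows, and those that moved by 1.5 times or less stand at the end of the paragraph. For IL-10 alone at 3 h (1 as reported) there were 0 with only the groups compared and 3 with the GC trend removed. The interaction at 3 h (0) had 1 with the GC trend removed. LPS at 6 h (5 higher) had 3 at equal totals, of which 2 were higher and 1, Il10rb, lower, and 3, all higher, under quantile normalization. IL-10 during LPS at 6 h (2) had 4 at equal totals, in DESeq2, with weights and with the GC trend removed. The interaction at 6 h (2) had 1 with no filter, equal totals, quantile normalization, only the groups compared or without the first 12 h libraries. LPS at 12 h (4) had 2 at equal totals, under quantile normalization and with only the groups compared. IL-10 alone at 12 h and IL-10 during LPS at 12 h (0 each) had 1 with the GC trend removed, and the latter 1 without the first 12 h libraries. LPS at 12 h against 6 h (1) had 0 with no filter, equal totals, TMM, quantile normalization, edgeR, the block or without the first 12 h libraries, and 3 with the GC trend removed. Both agents at 12 h against 6 h (1) had 2 at equal totals, with TMM, edgeR or the GC trend removed, 3 in DESeq2 and 0 without the first 12 h libraries. IL-10 during LPS at 12 h against 6 h (0) had 1 at equal totals, in DESeq2 and with the GC trend removed. LPS at 3 h kept 4 calls, but at equal totals and under quantile normalization these were 3 higher and 1, Il10rb, lower. Smaller moves were to 3 for IL-10 during LPS at 3 h (only the groups compared, weights, the block, the GC trend removed), to 4 for LPS at 6 h (edgeR, only the groups compared), to 3 for IL-10 during LPS at 6 h (TMM, quantile normalization, edgeR, only the groups compared) and to 3 for LPS at 12 h (weights).

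With 1 library left out, the counts for LPS, IL-10 alone, IL-10 during LPS and the interaction ranged at 3 h over 4 to 4, 0 to 3, 2 to 3 and 0 to 1, at 6 h over 4 to 5, 0 to 0, 1 to 4 and 0 to 3, and at 12 h over 2 to 5, 0 to 1, 0 to 0 and 0 to 0. From 6 h to 12 h they ranged over 0 to 2 for LPS, 0 to 0 for IL-10 alone, 0 to 3 for both agents and 0 to 1 for IL-10 during LPS.

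The values do not settle whether the replicate numbers pair the libraries. Deviations of same-numbered libraries correlated between groups at -0.05 to 0.27 in the 3 h table and -0.41 to 0.70 in the other. Above 0.1 stood 3 of 6 pairs of groups in the 3 h table and 6 of 21 in the other. With the replicate number as a block, IL-10 during LPS at 3 h called 3 members (Il10ra passing at -0.27) and LPS at 12 h against 6 h called 0. The block with the GC trend removed gave the counts of the GC correction alone, except for IL-10 during LPS at 12 h against 6 h.

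Counts over all genes moved more. IL-10 alone at 3 h called 202 genes, and 13 to 620 over the alternatives with all libraries, and at 12 h 200 and 0 to 895. At 6 h it called 8, and 0 to 43. IL-10 during LPS called 1185 at 3 h (1018 to 3301), 3037 at 6 h (2175 to 4884) and 630 at 12 h (52 to 2009). The interactions called 344 (250 to 944), 861 (418 to 2147) and 49 (1 to 428). LPS called 6601 at 3 h (5101 to 8768), 7653 at 6 h (5496 to 9816) and 6083 at 12 h (3286 to 8022). From 6 h to 12 h the counts were 2021 for LPS (up to 4619), 1 for IL-10 alone (0 to 655), 2416 for both agents (1871 to 3548) and 148 for IL-10 during LPS (up to 1028).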
